A study of Paxillus involutus and Laccaria bicolor with 24 samples.

Results

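The 100 gene models described here are those of the ectomycorrhizal fungus *Laccaria bicolor* whose transcript level stepped up between ammonium depletion and glucose depletion and stayed up afterwards. They were taken from 23130 *L. bicolor* models, of which 14352 had a mean count of at least 11 reads over the 12 libraries and were tested. The tables of both fungi together held 41098 models. For each model, counts were scaled to the library total (CPM, counts per 1000000 counted reads) and averaged within a time point, and the level was log2(mean CPM + 1). A model was kept when the step between T2 and T3 made up more than 0.6 of its summed absolute steps over the time course, which left 1335 models. The 100 with the largest margin were the members, where the margin is the lower of the T3 and T4 levels minus the higher of the T1 and T2 levels. Members are called by their rank in that order. Because all 12 libraries entered this choice, the differences between time points are descriptions. Calls of a test across all models are counted beside them, and since the selection used or bounded each of these steps, nothing about the members is read from the counts.

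Mycelium of *L. bicolor* (Maire) P.D. Orton and of *Paxillus involutus* (Batsch) Fr., ATCC 200175, was grown in Petri dishes on glass beads, starved of nitrogen for a short time and then moved to a hot-water extract of Norway spruce forest soil to which glucose had been added. The *L. bicolor* mycelium was sampled in active growth (T1, day 2), at ammonium depletion (T2, day 13), at glucose depletion (T3, day 23) and after prolonged glucose depletion (T4, day 30). Each time point had 3 biological replicates in each of the fungi, 24 libraries in all. Every culture received the same extract and the same glucose at the start, and no culture analysed here was given new glucose, so the age of the culture and its nutrient state cannot be told apart.

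Ectomycorrhizal fungi live on sugar from their host tree and take up nitrogen and other nutrients from the soil. While glucose is plentiful, fungi repress many genes for the use of other carbon sources. When it runs out this repression is lifted, growth slows, and cells turn to stored and recycled material, through routes such as fatty acid oxidation, the glyoxylate cycle, secretion of hydrolases and autophagy. No table used here pairs the *L. bicolor* model names with genes or functions (an annotation list of the study goes by protein numbers, which the names do not carry), so the members were not assigned to any of these routes.

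The *L. bicolor* libraries held 10598530 to 13187194 counted reads, and the lowest share of a library's reads on the tested models was 99.9%. CPM is a share of the reads of a library: a larger share for the members cannot be told apart from less RNA of the other genes. Reads were allowed 1 hit in the alignment, so counts of near-identical copies are uncertain.

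Most members were already transcribed before glucose ran out, and few were switched on in the strict sense. The members had a median mean CPM of 8.07 at T1 and 9.73 at T2, followed by 42.3 at T3 and 51.0 at T4, whereas the median over all tested models stayed between 18.9 and 21.5 CPM. At T1, 13 members had a mean under 1 CPM, and at T2 there were 6. At T3 and T4 no member was under 1 CPM. Members of 100 CPM or more numbered 8 at T1 and 10 at T2, then 29 at T3 and 33 at T4. Relative to the tested models, 38 members were in the top 20% by mean CPM at T3, against 18 at T2. At T3, 33 members were below the median model, against 62 at T2. The members were thus mainly models of low or moderate level that became moderate to abundant.

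The T3 step had a wide range of sizes among the members. The ratio of mean CPM at T3 over T2 had a median of 3.26 and ran from 2.14 to 147. Of the 100 members, 41 had a ratio under 3, 47 had a ratio of 3 or more but under 8, and 12 reached 8 or more. On the log2(mean CPM + 1) scale the step had a median of 1.56, against 0.05 over all tested models. In every member each of the 3 T3 libraries was above each of the 6 libraries of T1 and T2. The choice by the largest margins made this close to certain, and the share over all tested models was not counted. The lowest T3 library divided by the highest earlier library had a median of 2.57 and was smallest, at 1.87, for rank 79. The edgeR quasi-likelihood test at a false discovery rate of 1% called all 100 members higher at T3 than at T2, where it called 18.6% of all tested models higher. This contrast chose the members.

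**Figure D1:**
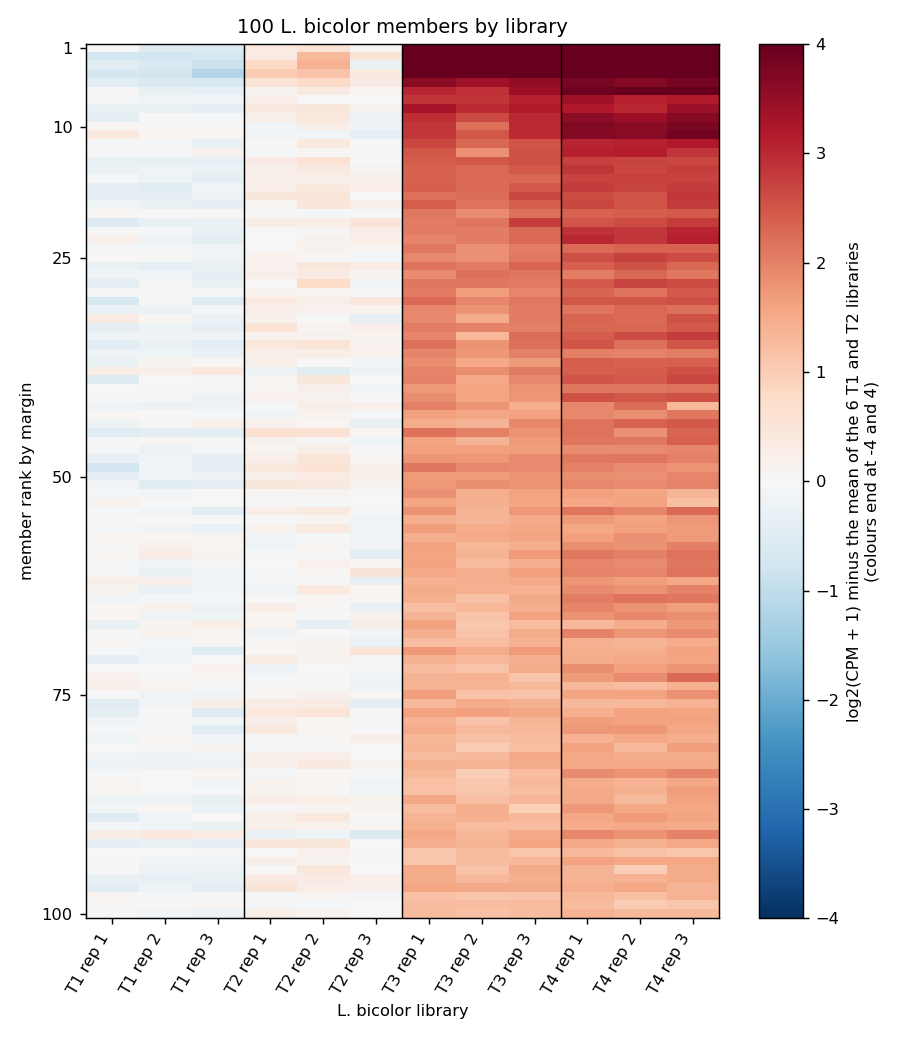
Level of the 100 members (rows, by rank) in the 12 *L. bicolor* libraries (columns), as log2(CPM + 1) minus the mean of the 6 libraries of T1 and T2, with colours ending at 4 in either direction. Rows change colour between T2 and T3, most strongly in the first ranks, and the red is deeper at T4 than at T3 in many rows.

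The margin fell off steeply over the first ranks and then slowly. It was 5.92 at rank 1, 4.60 at rank 2, 3.48 at rank 3, 2.71 at rank 10 and 1.49 at rank 50. At the end of the list there was no gap, since the margin was 1.10 both at rank 100, the last member, and at rank 101, the first model left out. Another 129 models had a larger margin than rank 100 but spread their change over other steps, and in 33 of them the step between T1 and T2 was larger than that between T2 and T3. The members closest to that limit were rank 64 and rank 61, with 0.604 and 0.607 of the summed steps between T2 and T3. The nearest models outside it had 0.599 and 0.594.

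Rank 1, the model Lacbi1.Eugenev2.0000410002, had the largest margin. Its level was 188, 141 and 196 CPM in the T3 libraries, against 1.99, 2.33 and 1.39 CPM in the T2 libraries. At T1 it had been 1.25, 0.575 and 0.556 CPM, which were 14, 7 and 6 reads. The T3 libraries were all far above the earlier ones, and the mean was 175 ± 30.0 CPM at T3, against 1.90 ± 0.472 CPM at T2 (SD, n = 3 each), a ratio of 92.0. In the T4 libraries it had 384, 324 and 367 CPM, all above the T3 libraries, and the ratio of T4 over T3 was 2.05.

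Rank 2, the model fgenesh1_kg.LG_10_#_553_#_1318752:1, had 143, 117 and 166 CPM in the T3 libraries, against 3.31, 7.41 and 3.92 CPM in the T2 libraries. The ratio of the means was 29.0. It had been higher at T2 than at T1, where the libraries had 1.08, 0.986 and 1.11 CPM, and none of these libraries overlapped. At T4 it had 309, 296 and 314 CPM, with a T4 over T3 ratio of 2.16, the highest of the 100 members. Rank 2 therefore moved up at each of the 3 steps, with the T3 step by far the largest.

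Ranks 3 to 5 were also above T1 at T2. Rank 3 had 61.8, 54.0 and 63.4 CPM in the T3 libraries, against 4.47, 7.24 and 1.57 CPM in the T2 libraries. Its T2 libraries differed more from each other than those of most members, and the ratio of the means was 13.5. Rank 4 was the third most abundant member at T3, with 1287, 985 and 1347 CPM, against 126, 138 and 81.9 CPM in the T2 libraries. It had 38.7, 36.6 and 26.6 CPM at T1, and its T2 over T1 step of 1.73 on the log2 scale was the largest of all members. At T4 rank 4 had 1315, 1198 and 1433 CPM, which overlapped the T3 libraries. Rank 5 had 43.2, 37.2 and 41.2 CPM at T3, against 4.22, 5.17 and 3.57 CPM at T2, a ratio of 9.38.

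Ranks 6 and 7 were low before T3. Rank 6 had 14.1, 13.0 and 18.7 CPM in the T3 libraries, against 0.994, 1.38 and 0.958 CPM in the T2 libraries, and reached 26.1, 28.6 and 33.8 CPM at T4. Rank 7 had 18.5, 18.6 and 21.9 CPM at T3, against 2.24, 1.64 and 1.74 CPM at T2. The T4 libraries of rank 6 were all above its T3 libraries, while rank 7, with 27.3, 21.6 and 23.3 CPM at T4, overlapped.

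Ranks 8 to 11 had more reads before the step and differed in what followed it. Rank 8 had 340.5, 272 and 313 CPM in the T3 libraries, against 43.4, 46.8 and 37.4 CPM in the T2 libraries, and its T4 libraries, with 319, 282 and 379 CPM, lay around the same level. Rank 10 had 92.2, 58.1 and 99.7 CPM at T3, against 10.9, 14.3 and 10.5 CPM at T2, where it was at its T1 level of 12.5, 11.1 and 11.9 CPM. Its T4 libraries had 167, 156 and 174 CPM, a T4 over T3 ratio of 1.99. Rank 11 was lower at T2 than at T1 before it stepped up: it had 42.4, 43.3 and 37.2 CPM at T2, against 62.0, 50.0 and 49.9 CPM at T1. It then reached 337, 269 and 379 CPM at T3 and 613, 590 and 688 CPM at T4.

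**Figure D2:**
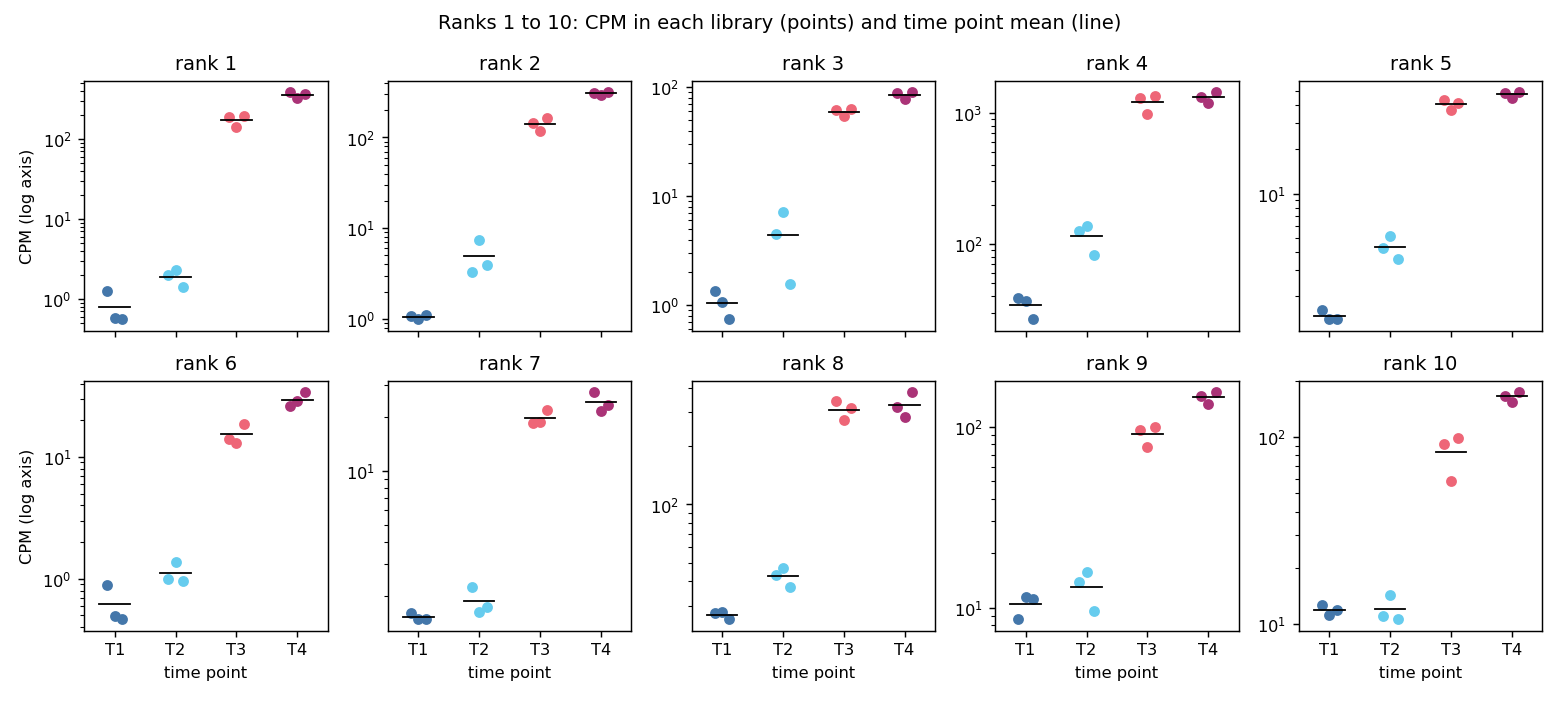
CPM of ranks 1 to 10 in each *L. bicolor* library (points, log axis, a panel per member) and the mean of each time point (line). The T3 points of each panel lie above all T1 and T2 points, and the T4 points lie well above T3 for ranks 1, 2, 6, 9 and 10 and around the T3 level for ranks 4 and 8.

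A few members were close to absent before T3, and for these the ratios are poorly determined. Rank 13 had 51, 30 and 60 reads in the T3 libraries, against 0, 1 and 0 reads at T2 and 0, 0 and 2 reads at T1. From the summed reads the T3 over T2 ratio was 148, with a 95% counting interval of 26.1 to 5887. The T3 over T1 ratio was 71.9 (19.5 to 599). Intervals of this kind cover counting error only. Rank 13 went on to 101, 86 and 86 reads at T4, so that it was detected in every library of the last 2 time points and in few before.

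Rank 73 had 20, 22 and 17 reads at T3, against 1, 2 and 0 reads at T2, a ratio of 20.6 (6.73 to 103). Rank 75 had 27, 16 and 17 reads at T3, against 2, 3 and 2 reads at T2. These were low even after the step, and their T3 reads were few enough that counting error alone is large. Rank 95 had 24, 18 and 27 reads at T3 and 25, 14 and 30 reads at T4, which overlapped. Rank 45 was also near the floor at T1, with 0.0896, 0.164 and 0.185 CPM, but was at 1.33, 1.29 and 0.610 CPM at T2 and then at 5.84, 5.17 and 4.29 CPM at T3. At T1, 3 members had no read in at least 1 library, and at T2 there were 2.

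At the other end were members that were abundant all along and stepped up by little more than 2-fold. Rank 83 took the most reads of all members, with 8381, 8057 and 8812 CPM in the T3 libraries, against 3635, 4015 and 3517 CPM in the T2 libraries, a ratio of 2.26. Rank 100 followed, with 4690, 4393 and 4602 CPM at T3, against 2276, 2152 and 1958 CPM at T2, and its ratio of 2.14 was the smallest of the members. Among all tested models ordered by CPM, rank 83 was the 9th at T3, against the 16th at T2, and rank 100 was the 15th at T3, against the 35th at T2. CPM is per model and not per length, so this order is one of reads and not of molecules.

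Rank 78 had 1159, 991 and 1133 CPM at T3, against 507, 467 and 455 CPM at T2, and rank 98 had 549.9, 526 and 536 CPM at T3, against 235, 264 and 229 CPM at T2. In ranks 78, 83 and 100 the T2 libraries were also above the T1 libraries, and in rank 98 they overlapped. The spread between the replicates of these abundant members was small beside the step. None of the 4 was called higher at T3 once the authors' deposited factors were applied, with log2 changes of 0.22 in rank 83, 0.09 in rank 100, -0.11 in rank 78, which turned in direction, and 0.66 in rank 98.

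The members together took 2.43, 2.24 and 2.50% of the counted reads in the T3 libraries, against 0.935, 0.969 and 0.850% in the T2 libraries. The mean share was 0.735 ± 0.0150% at T1 and 0.918 ± 0.0613% at T2, then 2.39 ± 0.136% at T3 and 2.81 ± 0.0550% at T4 (SD, n = 3 each). At T3, rank 83 held 35.2% of the members' reads, rank 100 held 19.1%, and the 5 most abundant members together held 66.2%. Ranks 1 to 10 held 8.96% of the members' reads at T3, against 2.19% at T2. The summed gain of 14715 CPM between T2 and T3 lay to 31.9% on rank 83 alone. Without rank 83 the mean share was 0.466 ± 0.0128% at T1 and 0.546 ± 0.0412% at T2, then 1.55 ± 0.102% at T3 and 1.88 ± 0.0577% at T4. As a share of reads it thus rose at the same steps without that member. Ranks 83 and 100, with the most reads, were among the members not called higher at T3 with the authors' factors.

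**Figure D3:**
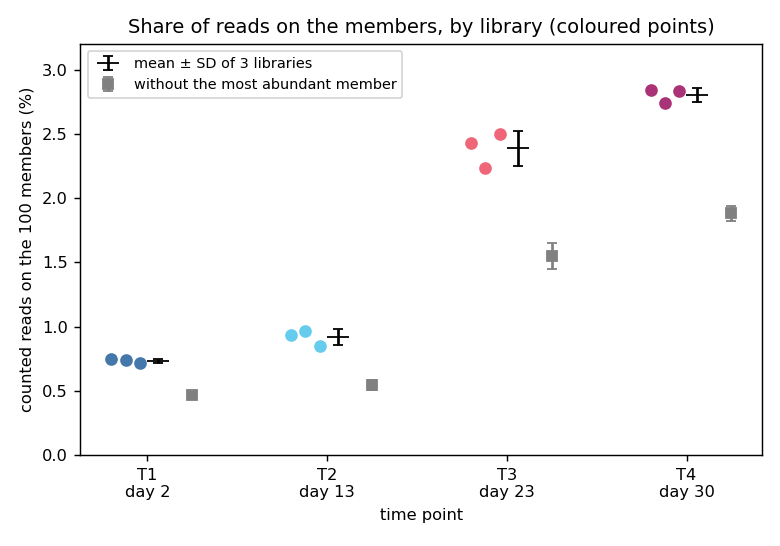
Share of counted reads on the 100 members in each *L. bicolor* library (coloured points) with mean ± SD of the 3 libraries (black), and the mean ± SD without the most abundant member (grey squares), by time point. The share was 2.39% at T3, against 0.918% at T2, and without that member 1.55% at T3, against 0.546% at T2.

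After T3 the members stayed up, as the selection by the lower of the T3 and T4 levels asked, and many moved further up. A fall at T4 lowered the margin and a rise did not, so the values of this step are descriptions. The step between T3 and T4 had a median of 0.33 on the log2(mean CPM + 1) scale, against 0.08 over all tested models. It was above 0 in 90 members and below 0 in 10, while 64.6% of all tested models had it above 0. The step was 0.5 or more in 25 members, between 0.25 and 0.5 in 37, and under 0.25 in size in 38. Shares of these sizes over all tested models were not counted. In 69 members every T4 library was above every T3 library, in 31 the libraries overlapped, and in no member were all T4 libraries below. Among all tested models, 29.1% had T4 above T3 without overlap and 12.2% had it below. These values are on plain library totals. With TMM scaling in their place the median step was 0.24 in the members and -0.01 over all tested models.

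The edgeR test called 38 members higher at T4 than at T3, and over all tested models it called 6.09% higher. The T4 over T3 ratio of these 38 had a median of 1.54. It called no member lower at T4, while 9.35% of all tested models were called lower, and 3 members were lower at an unadjusted p below 0.05. With DESeq2, 34 members were called higher, against 5.74% of the models it gave an adjusted p, and none lower, against 9.78%, with 2 lower at an unadjusted p below 0.05. With the authors' factors in edgeR, 22 members were called higher, against 3.83% of all models, and 1 lower, against 4.79%. The selection limits this step to a part of the T3 step and asks for a high T4 level. The count of 38 depended on single libraries: it was 21 without T3 replicate 2 and 24 without T4 replicate 3. Without T3 replicate 2, 1 member was called lower.

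The largest T4 steps were in the first ranks, where the selection left the most room for them. The largest log2 steps were 1.11 in rank 2, 1.03 in rank 1, 0.98 in rank 10, 0.94 in rank 11 and 0.91 in rank 6. Of the first 25 ranks, 15 were called higher at T4, and of the first 50 ranks, 26. Over all tested models 6.09% were called higher. Rank 22 had 37.8, 35.9 and 41.6 CPM at T4, against 20.2, 20.2 and 23.9 CPM at T3. Rank 41, a more abundant member, had 525, 499.7 and 517 CPM at T4, against 322, 267 and 301.5 CPM at T3. In both, the T4 libraries were clear of the T3 libraries. Ranks 6, 10 and 11 were also called higher at T4 with the authors' factors, and ranks 1, 2, 22 and 41 were not.

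The opposite end held members whose mean CPM was slightly lower at T4 than at T3. Rank 70 had 12.2, 12.1 and 13.7 CPM at T4, against 14.9, 12.4 and 14.7 CPM at T3, and its ratio of 0.906 was the lowest. Rank 97 had 82.2, 87.1 and 77.0 CPM at T4, against 90.2, 84.9 and 85.6 CPM at T3, and rank 99 had 28.6, 24.3 and 25.9 CPM at T4, against 28.2, 28.4 and 28.8 CPM at T3. The libraries of these 3 members overlapped and none of the 3 was called. On the same log2(mean CPM + 1) scale with TMM in place of the plain library totals, 16 members in place of 10 had a T4 step below 0, the lowest at -0.22.

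Before glucose ran out the members were divided. The margin is taken from the higher of the T1 and T2 levels. For a given T3 step, a fall at T2 therefore lowered the margin and a rise did not. The selection thus favoured models higher at T2, and the counts of this step are descriptions. Between T1 and T2 the log2 step had a median of 0.25, against 0.01 over all tested models. At T2, 75 members were higher and 25 lower, while 51.6% of all tested models were higher. The size was under 0.25 in 46 members, and 24 members had stepped up by 0.5 or more. For these sizes the shares over all tested models were not counted. In 53 members every T2 library was above every T1 library, in 8 it was below, and in 39 they overlapped. Over all tested models the shares without overlap were 28.0% above and 26.8% below. The edgeR test called 35 members higher and 4 lower at T2 than at T1, whereas 17.9% of all tested models were called higher and 18.9% lower.

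The 4 members called lower at T2 were ranks 11, 38, 59 and 91, and all 4 were called higher at T4. The selection asks for a high T4 level, and the share of all tested models with both calls was not counted. Rank 38 had 4.06, 3.10 and 4.01 CPM at T2, against 5.67 to 6.85 CPM at T1. Rank 91 had 20.2, 22.2 and 16.9 CPM at T2, against 30.1, 34.0 and 30.8 CPM at T1. Both then rose past their T1 level, with 21.4, 20.1 and 23.3 CPM at T3 in rank 38 and 74.8, 64.1 and 72.6 CPM at T3 in rank 91. Without T2 replicate 3, 2 members in place of 4 were called lower at T2, and with the authors' factors there were also 2.

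Of the 35 members called higher at T2, 4 were also called higher at T4 and 31 were not. A further 30 members were called higher at T4 without a call at T2, and 31 were called at neither step. The lack of a call does not show a flat level. In the last group, rank 75 had a fitted log2 change of 2.39 at T2 over T1, with a standard error of 1.05. Rank 28 had 0.60 at T2 over T1 and 0.43 at T4 over T3. The selection caps the sum of the steps at T2 and T4, so a member with a large step at one of these times had less room at the other. Over all tested models 17.9% were called higher at T2 and 6.09% higher at T4, and joint calls were not counted there. Nothing about the members is read from the joint counts.

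The ranks follow the margin, which is built from the same levels, so the size of the T3 step falls over the ranks by construction, and the selection ties the room for the T4 step to it. The median T3 over T2 ratio was 6.99 in ranks 1 to 25, 3.68 in ranks 26 to 50, 2.97 in ranks 51 to 75 and 2.30 in ranks 76 to 100. The median T4 step was 0.41, 0.38, 0.34 and 0.18 over the same groups of ranks. As ratios of mean CPM, T4 over T3 had medians of 1.34, 1.31, 1.35 and 1.13. The median T2 level was 7.32, 7.39, 7.55 and 20.3 CPM, close to flat over the first 3 groups and higher in the last. The median T3 level was 55.2, 24.0, 20.9 and 57.1 CPM, with the first and last groups alike.

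Replicates of a time point were not compared by the selection, which used means only. At T3, replicate 2 was the lowest of the 3 libraries in 73 members and the highest in 8, whereas it was the lowest in 34.1% of all tested models. At T2, replicate 3 was the lowest in 66 members and replicate 2 the highest in 61, against 37.2% and 27.5% of all tested models. At T4, replicate 3 was the highest in 60 members and replicate 2 the lowest in 54, against 36.4% and 35.3% of all tested models. The members thus moved together between replicate cultures, at a small scale: their median log2 deviation from the time point mean was -0.12 in T3 replicate 2 and -0.11 in T2 replicate 3. Over all tested models the median deviation was within 0.01 of 0 in these libraries.

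**Figure D4:**
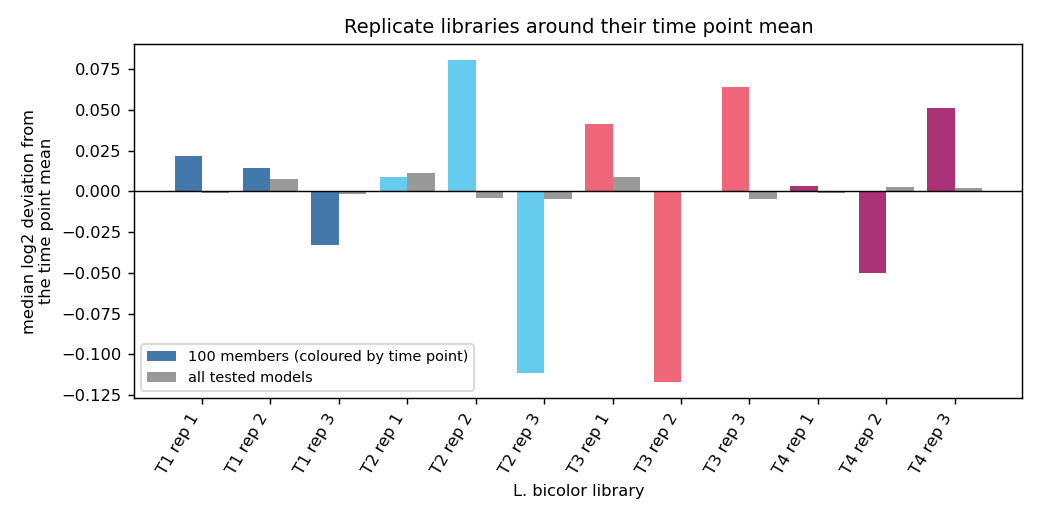
Median log2 deviation from the time point mean in each *L. bicolor* library, for the 100 members (coloured) and for all tested models (grey). The members were lowest in T3 replicate 2, at -0.12, and in T2 replicate 3, at -0.11, and highest in T2 replicate 2, at 0.08.

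The median coefficient of variation between replicates of the members was 7.93% at T1 and 12.2% at T2, then 9.81% at T3 and 7.41% at T4. Over all tested models it was 6.97% at T1 and 7.65% at T2, then 7.52% at T3 and 6.78% at T4. The difference was widest at T2, the time point before the step.

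The step was also read in replicates that had no part in the choice. Each replicate number was left out of all 4 time points in turn, 100 models were chosen by the same rule from the other 2 numbers, and the levels were read in the number left out. The new lists shared 80, 87 and 86 models with the members for the replicate numbers 1, 2 and 3. In the replicate left out, the T3 step was above 0 in all 100 models of each list. Its median was 1.55, 1.38 and 1.61 in the replicate left out, against 1.52, 1.68 and 1.44 in the replicates used. Fewer models met the condition on the share of the summed steps in the replicate left out, namely 68, 58 and 88. The lowest T3 step in the replicate left out was 0.31, 0.60 and 0.61. Models chosen for a large margin in 2 replicates could hardly fail to be higher at T3 in the other. These values therefore describe the spread between replicates and are no test of the members.

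Of the normalizations, the authors' own changed the T3 calls. The authors deposited a factor for each model and library, which adjusts for length, G/C content and depth. With these factors in the edgeR fit, 94 of the 100 members were called higher at T3 than at T2, against 14.5% of all tested models. The other 6 were ranks 78, 79, 82, 83, 98 and 100, and 5 of these were among the 7 most abundant members at T3. Their factors were 1.24 to 2.35 times as high at T3 as at T2, whereas the median ratio of the factors was 1.13 over the members and 0.989 over all tested models.

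With TMM, the fitted T3 over T2 change of these 6 members was 1.06 to 1.16 on the log2 scale, with standard errors of 0.06 to 0.10. With the authors' factors it was 0.25 in rank 79 and 0.32 in rank 82, beside the values of ranks 78, 83, 98 and 100 given above. Other members moved by more and kept the call: rank 50 was at 3.65 with the factors and 1.47 with TMM, and rank 2 at 3.04 with the factors and 4.83 with TMM. Rank 4, the third most abundant, was at 3.87 with the factors and 3.35 with TMM. The T3 step of these 6 members was therefore called on read shares and not once the deposited factors were applied. The median change over all members was 1.51 with the factors. What in the factors moved with these models was not tested.

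**Figure D5:**
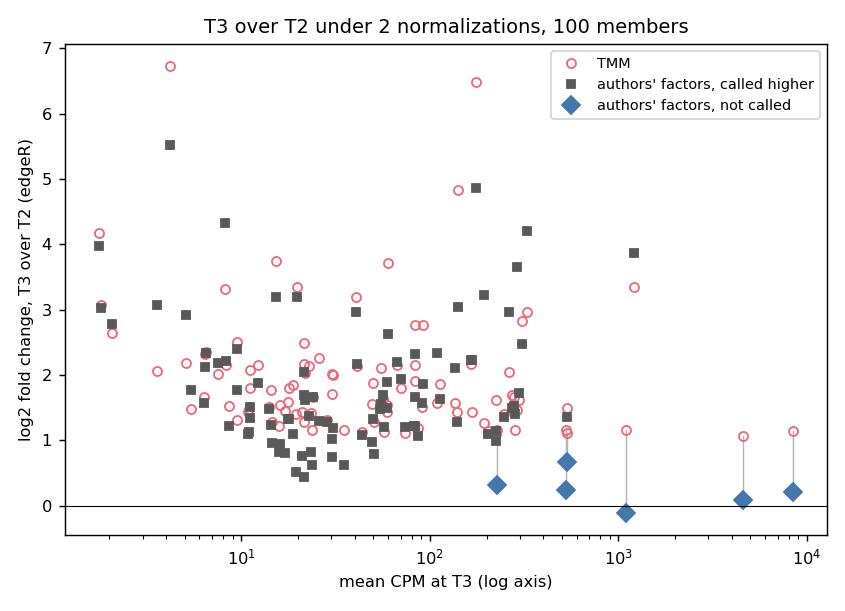
Fitted log2 change of T3 over T2 of the 100 members against their mean CPM at T3 (log axis), with TMM (open circles) and with the authors' deposited factors (squares where called higher, diamonds where not). The 6 members not called with the factors, joined by lines to their TMM values, all had at least 227 CPM at T3, and rank 78 lay at -0.11.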

How the data were processed

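The 24 libraries were single reads of 50 bp from total RNA of *P. involutus* and *L. bicolor* mycelium. According to the submitters' processing notes and the study's methods, the authors checked reads with FastQC 0.11.2, removed ribosomal reads, aligned with TopHat2 2.0.13 (Bowtie2 2.2.3.0, SAMtools 0.1.19) to the gene models of each species and counted reads on coding sequence, by strand, with HTSeq 0.6.1. Counts were deposited by the authors as whole reads of each gene model, not normalized. The authors also deposited regularized log values on a log2 scale (DESeq2 1.14.1) and normalization factors per model and library, a ratio that adjusts for length, G/C content and depth.

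Here CPM was computed from the counts of each library's column total. Models whose mean count reached 11 were tested. Levels were log2(mean CPM + 1), with a pseudocount of 1. Members were chosen by the rule given in the report. The members, lists and alternatives were chosen with earlier results of these data known. Calls came from the quasi-likelihood test of edgeR 4.0.16 (R 4.3.3) with TMM, fitted to all 12 *L. bicolor* libraries with time point as the only term, with p-values adjusted by Benjamini-Hochberg over 14352 models and a false discovery rate of 1%, and the fit was tested on simulated data. Such p-values measure the spread between the replicate cultures. Counting intervals are exact 95% intervals for a ratio of summed reads.

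Alternatives were DESeq2 1.42.0, its size factors, the authors' factors, the deposited log2 values, other pseudocounts, minimums, limits and list sizes, the replicate number as a block, and leaving out each library. By the rule for named genes, the 20 highest ranks were to be named where a table pairs models with genes. The reference table used here matched 0 *L. bicolor* models, so only ranks 1 and 2 are printed by identifier. No member was called lower at T4, so none was printed as having fallen. The other members described, beside ranks 3 to 10 and the most abundant at T3, were chosen after their values were seen. The replicate numbers did not pair the libraries. *P. involutus* was used only to apply the same rule there.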

Additional observations from a re-analysis of the deposited data

Results flagged for a closer look

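Models under the count minimum took no part in the comparisons. Of 4489 such *L. bicolor* models with at least 1 read, 380 had more than 0.6 of their summed steps between T2 and T3 in the upward direction. Their largest margin was 0.97, below the 1.10 of rank 100, so 0 of them would have been members without the minimum. The model with that margin had 17, 17 and 17 reads in the T3 libraries, against 6, 1 and 1 reads in the T2 libraries. It had 18, 12 and 21 reads at T4.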

How the results depend on the processing

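Of the 100 members, 53 were chosen again with the authors' factors, 50 with the deposited log2 values and 14 when the T3 step had to make up 0.8 of the summed steps. The other normalizations, pseudocounts and limits kept 69 to 100, and leaving out 1 library kept 87 to 98. The limit of the list moved to a margin of 1.49 with 50 members and 0.79 with 200. The median T4 step of 0.33 was 0.24 with TMM, 0.23 with the authors' factors, 0.24 with DESeq2 size factors, 0.15 with the deposited log2 values, 0.28 with a pseudocount of 5, and 0.26 to 0.37 without single libraries. With TMM the median T4 step over all tested models was -0.01 in place of 0.08. The share of reads at T3 was 1.55% without rank 83. With the authors' factors, 22 members were called higher and 1 (rank 92) lower at T4, and 2 lower at T2. Without single libraries, 21 to 43 members were called higher and 0 to 1 lower at T4, 26 to 38 higher and 2 to 5 lower at T2, and 100 higher at T3. The causes of these differences were not tested. With the replicate number as a block, 100 members were called higher at T3, 37 higher and 0 lower at T4, and 36 higher and 4 lower at T2. The numbers did not pair the libraries: over 18 pairs with the same number the deviations correlated at -0.05 to 0.13, 2 pairs were above 0.1, and 1 library correlated best with its own number throughout. Depth limits ranks 13, 73, 75 and 95, with 0 to 7 reads in each library before T3.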

Other observations

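Model names were compared without reading a function from them. Names of the first version of the gene models were carried by 39 members, against 30.6% of all tested models. Of 304 tested models with Eugenev2 in the name, 10 were members, among them rank 1, while such models were 2.12% of those tested. A linkage group was given in the names of 26 members, which lay on 9 of the 10 groups named. Linkage group 1 held 8 of these, and group 2 held none, against 25.4% and 10.9% of the tested models with a group in the name.

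The label phl, whose meaning is not given in the sources used here, stood in the names of 26 models, of which 15 were tested. Between T2 and T3, 14 of the 15 had a step above 0, as had 55.5% of all tested models. A step of 1 or more on the log2(mean CPM + 1) scale was seen in 10, a size reached by 2.48% of all tested models. The median T3 step of the 15 was 1.23, with a range of -0.05 to 2.36. Between T1 and T2, 4 of the 15 also had a step of 1 or more, a share not counted over all tested models. Ranks 12, 13 and 21 were among the 15 and had been chosen for their T3 step. Rank 12 had 9.42, 6.96 and 8.32 CPM in the T3 libraries, against 0.663, 1.12 and 0.610 CPM in the T2 libraries. Rank 21 had 7.44, 8.12 and 12.9 CPM at T3, against 1.49, 1.47 and 1.92 CPM at T2. This group was picked from the names after the members were known, and counts of near-identical copies are uncertain.

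The same rule in *P. involutus*, sampled at days 2, 5, 9 and 13 with glucose depletion at day 9, kept 1061 of 12032 tested models. The largest margin was 3.73, and rank 100 had 1.12. The median margin of its 100 models was 1.47, against 1.49 in *L. bicolor*. These 100 models took 0.40 ± 0.00943% of reads at T1 and 0.454 ± 0.0257% at T2, then 1.60 ± 0.0423% at T3 and 2.15 ± 0.241% at T4 (SD, n = 3 each). Members of both species were not matched to each other.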
